A study of Mus musculus with 16 samples.

Results

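The genes described here encode parts of the mitochondrial respiratory chain, and they were read from both genomes of the cell. They were taken from the deposited count table by type and symbol: protein-coding genes named Nduf, Uqcr, Sdha to Sdhd or Cox4 to Cox8, with all protein-coding genes named mt-. The rule found 90 of the 55385 genes of the table, of which 77 are nuclear and 13 are mitochondrial. The nuclear genes were 39 Nduf genes of complex I, 8 complex I assembly factors named Ndufaf, 4 Sdh genes of complex II, 8 Uqcr genes of complex III and 18 Cox genes of complex IV. These classes follow the symbol alone, so Ndufa4 and its relative Ndufa4l2 count with complex I. Of the 90 genes, 88 had enough counts to be tested: all 13 mt- genes and 75 nuclear genes. The exceptions were Cox8c, with a count of 0 in all 16 libraries, and Cox7b2, which did not exceed 0.298 CPM, the usual count scaled to library size, in any library. The rule uses names and gene types, not measured values.

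The respiratory chain passes electrons from NADH and succinate through complexes I to IV to oxygen and pumps protons, and ATP synthase uses the resulting gradient to make ATP. Most subunits are encoded in the nucleus and imported, while a small set of hydrophobic core subunits, with parts of ATP synthase, is encoded and translated inside the mitochondrion, so each complex other than complex II is built from both genomes. Neurons depend on it for the ion pumping that follows synaptic activity.

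The study sequenced polyadenylated RNA from the hippocampus of mice 5 months old, with 4 libraries for each of 4 genotypes. Of the 4, 5xFAD-Dp16 mice carried both modifications, 5xFAD mice carried transgenes with familial Alzheimer disease mutations that are driven in neurons by the Thy1 promoter, and Dp16 mice carried 3 copies of a segment of chromosome 16 as a model of Down syndrome. Wild-type mice were C57BL/6J. All 4 5xFAD-Dp16 mice were male, and the other groups had 2 males and 2 females each, so that 5xFAD-Dp16 comparisons rest on the sex difference of the other genotypes. Libraries held 15.8 M to 25 M counts. Since the labels do not say outright that every library is its own mouse, p-values describe library-to-library spread. In bulk tissue, fewer cells of a type and less RNA per cell cannot be told apart. In 4 libraries (5xFAD-Dp16 replicate 3, 5xFAD replicates 2 and 4, and wild-type replicate 4) summed midbrain and hypothalamus markers were at 38.0 to 378 CPM, against 11.6 to 18.4 CPM in the other 12. The lowest of the 4 was 5xFAD replicate 4, at 38.0 CPM. Its median log2 level of these markers against the wild-type mean was only -0.066. That level was 1.797 in wild-type replicate 4, 2.54 in 5xFAD-Dp16 replicate 3 and 3.802 in 5xFAD replicate 2. Summed hippocampal neuron markers were 650 CPM in 5xFAD-Dp16 replicate 3, 626 and 660 CPM in 5xFAD replicates 2 and 4, and 412 CPM in wild-type replicate 4, against 903 to 1320 CPM in the other 12.

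None of the 90 genes lies on the segment that Dp16 mice carry in 3 copies, taken as Lipi to Zbtb21 (chromosome 16, 75540514 to 97962622 in build GRCm38). The single chromosome 16 gene among them is Ndufb4, an accessory subunit of complex I, at 37647170 to 37654453. Ndufv3, a complex I subunit whose human counterpart is on chromosome 21, is on mouse chromosome 17.

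The 13 mitochondrial genes are shown first by sequence, because 7 of them have near-identical annotated copies on chromosome 1 that bear on their values. The copies are unprocessed pseudogenes on the minus strand between 24611535 and 24616197. Over their aligned bases, the copies of mt-Co2 (681 bases), mt-Atp6 (678), mt-Co3 (783), mt-Nd4l (294) and mt-Nd4 (876) held no mismatch, the copy of mt-Nd3 held 1 in 345 and that of mt-Co1 held 6 in 492. The stretches below, from GENCODE transcripts on GRCm38, are 90 bases long, with mismatches between gene and copy in capitals. The mt-Co1 stretch is at chrM:6381-6470 and its copy Gm29216 at chr1:24616108-24616197. For mt-Nd3 the stretch is at chrM:9459-9548, with the copy Gm28438 at chr1:24613030-24613119. The first 90 bases of mt-Co3 (chrM:8607-8696) are identical in its copy Gm28437 (chr1:24613882-24613971), and 1 sequence stands for both.
mt-Co1: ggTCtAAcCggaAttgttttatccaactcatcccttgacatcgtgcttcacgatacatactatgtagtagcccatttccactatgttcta
Gm29216: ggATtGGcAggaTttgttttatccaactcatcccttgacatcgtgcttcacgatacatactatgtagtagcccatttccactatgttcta
mt-Nd3: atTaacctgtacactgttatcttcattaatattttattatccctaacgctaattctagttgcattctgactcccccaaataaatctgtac
Gm28438: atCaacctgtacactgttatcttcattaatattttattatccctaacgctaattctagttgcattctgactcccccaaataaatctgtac
mt-Co3 and Gm28437: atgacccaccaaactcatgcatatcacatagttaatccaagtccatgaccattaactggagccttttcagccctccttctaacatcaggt

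The mt- genes fell into 2 levels. RPKM values, which divide reads by gene length and library size and so allow levels to be compared between genes of different length, averaged 10240 for mt-Co1, 9178 for mt-Cytb, 7717 for mt-Nd1, 5397 for mt-Nd2, 3721 for mt-Nd5 and 2639 for mt-Nd4 over the 16 libraries. These 6 genes held 99 to 99.4% of all mt- counts in each library. The other 7 averaged 220.7 RPKM for mt-Co2, 133.5 for mt-Nd6, 107.6 for mt-Atp6, 74.8 for mt-Co3, 54.98 for mt-Atp8, 49.57 for mt-Nd4l and 13.95 for mt-Nd3. Within complex IV, mt-Co1 and mt-Co3, both catalytic-core subunits, were thus listed far apart. mt-Co2 to mt-Nd4l are neighbours on the mitochondrial genome, and mt-Nd6 is the gene read from the opposite strand.

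Among the 7 genes at the lower level, 5 shared 98% or more of their 50-base words with transcripts of other genes: 100% for mt-Co2, 99.9% for mt-Co3, 99.5% for mt-Atp6, 98.8% for mt-Nd4l and 98% for mt-Nd3. The shares of the higher 6 were 62.2% for mt-Nd4, 51.1% for mt-Co1, 8.19% for mt-Nd2, 7.61% for mt-Nd5 and 0% for mt-Nd1 and mt-Cytb. mt-Atp8 and mt-Nd6 were at the lower level and shared none with annotated transcripts. Sequence outside annotated transcripts was not searched. mt-Atp8 (7766 to 7969) starts between mt-Co2 and mt-Atp6. The copies of these neighbours lie side by side on chromosome 1 (24614885 to 24615565 and 24613974 to 24614651), and the stretch between them was not compared. The copies were listed with counts of their own. The mt-Co3 gene had 729 to 1659 counts per library and its copy 731 to 2565, and the copy held 49.4% of the counts of both. The copy held 59.7% for mt-Nd3, 56.7% for mt-Atp6, 42.4% for mt-Co2 and 36% for mt-Nd4l, against 1.05% for mt-Nd4 and 0.349% for mt-Co1. The sources used here do not give the rule for reads that match several places, and the part of sequence sharing in the low values was not tested. The levels of mt-Co2, mt-Atp6, mt-Co3, mt-Nd3 and mt-Nd4l are therefore uncertain, and so are their differences between genotypes. That of mt-Atp8 is uncertain too, since a copy outside annotated transcripts was not looked for. The same unknown rule applies to the shared part of mt-Nd4 and mt-Co1, so their levels are less certain than those of mt-Nd1 and mt-Cytb.

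**Figure D1:**
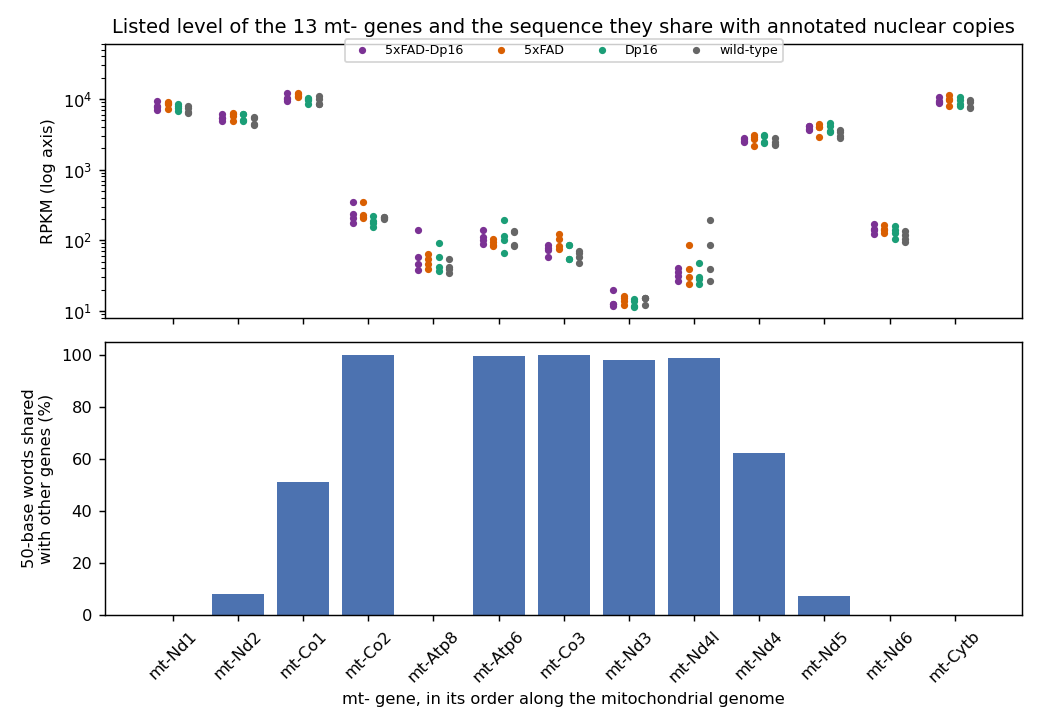
Upper panel: RPKM (log axis) of each mt- gene in each of the 16 libraries, coloured by genotype; lower panel: percent of the gene's 50-base words found in transcripts of other genes. The 6 genes that average 2639 RPKM or more stand apart from the other 7, and 5 of those 7 share 98% or more of their words.

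Nuclear members were expressed at a lower level per length than the 6 abundant mt- genes. The nuclear median was 83.23 RPKM, and none exceeded the 576.5 RPKM of Cox4i1, the regulatory subunit of complex IV. The sparse mt- genes lay within the nuclear range, and mt-Co3, mt-Atp8, mt-Nd4l and mt-Nd3 averaged below the nuclear median. The highest of the other classes were Uqcrh (320.8 RPKM), a hinge subunit of complex III next to cytochrome c1, Ndufa4 (241.1 RPKM), a subunit first assigned to complex I and found with complex IV, Sdha (145.7 RPKM), the flavoprotein of complex II, and Ndufaf2 (28.58 RPKM), a complex I assembly factor. Class medians were 136.7 RPKM for complex III, 113.7 for complex IV, 83.23 for complex I subunits, 71.87 for complex II and 11.8 for the assembly factors. The assembly factors, which help to build complex I and are not part of it, were thus the lowest class by median.

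The summed mt- genes made up 4.07 to 5.98% of all counts in a library. Their share was 4.64, 5.09, 5.78 and 5.04% in 5xFAD-Dp16 replicates 1 to 4 and 5.98, 5.6, 5.36 and 4.58% in 5xFAD. In Dp16 it was 5.22, 4.36, 5.54 and 4.71%, and in wild-type 4.17, 4.07, 4.93 and 5.11%. The ranges of all 4 genotypes overlapped. Group means were 5.14 ± 0.473% in 5xFAD-Dp16, 5.38 ± 0.591% in 5xFAD, 4.96 ± 0.525% in Dp16 and 4.57 ± 0.526% in wild-type (mean ± SD of 4 libraries each). No test was run on the share. Over the alternatives, the 5xFAD mean ran from 4.97% in males only to 5.67% without the 4 libraries high in midbrain genes.

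Set against the nuclear members in the same library, summed mt- counts stood at a log2 ratio of 2.83 ± 0.174 in 5xFAD-Dp16, 2.72 ± 0.517 in 5xFAD, 2.94 ± 0.262 in Dp16 and 2.66 ± 0.231 in wild-type (mean ± SD of 4 libraries each). This ratio does not depend on library scaling. The lowest value was 1.991 in 5xFAD replicate 4, and the other 15 libraries ranged between 2.483 and 3.218. That library had the largest nuclear share, 1.15% of counts against 0.595 to 0.914% elsewhere, and the lowest mt- share of its genotype.

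**Figure D2:**
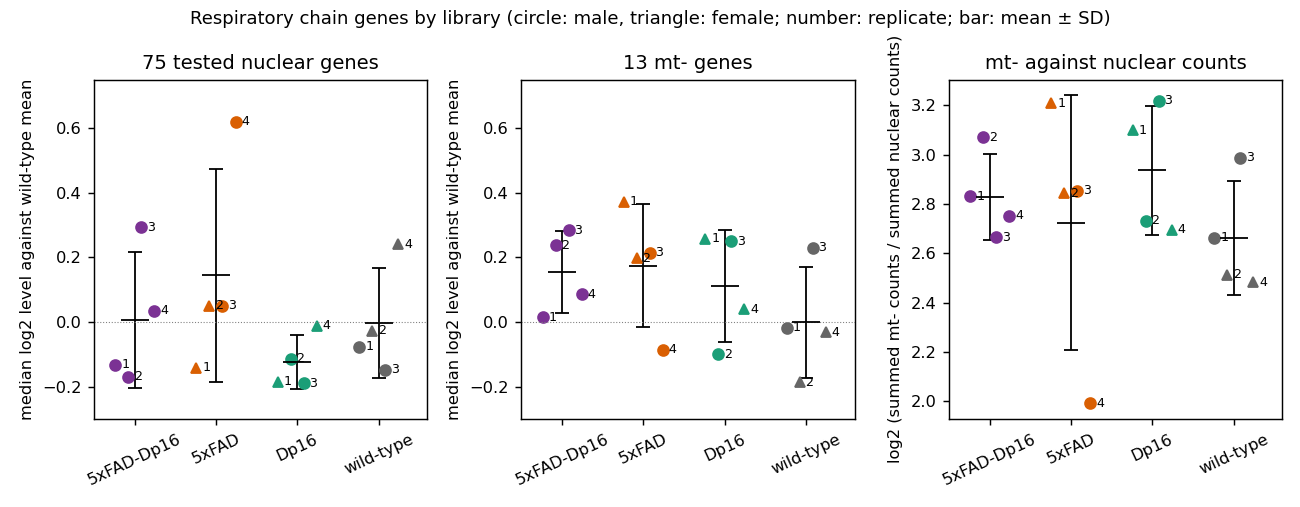
Left and middle: median over the 75 tested nuclear genes and over the 13 mt- genes of the log2 level in each library against the wild-type mean; right: log2 ratio of summed mt- to summed nuclear counts; bars give mean ± SD of 4 libraries. 5xFAD replicate 4 is highest for nuclear genes (0.62) and lowest for the ratio (1.991), and the 4 genotypes overlap in every panel.

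Across libraries, nuclear members moved together and did not follow the mt- genes. In 5xFAD replicate 4, 66 of the 75 tested nuclear members had their highest CPM of all 16 libraries, and 73 of 75 (97.3%) were above their wild-type mean on the log2 scale. The median ratio of that library to the wild-type mean was 1.52, from 0.681 for Ndufa4l2 to 2.16 for Cox7b, a small subunit of complex IV. The next libraries by the median log2 level of nuclear members were 5xFAD-Dp16 replicate 3 (0.293) and wild-type replicate 4 (0.241), with 94.7% of them above the wild-type mean in 5xFAD-Dp16 replicate 3 and 96% in wild-type replicate 4. These 3 are among the 4 libraries high in summed midbrain markers. The fourth, 5xFAD replicate 2, was at 0.05. In the remaining 12 libraries the median lay between -0.189 and 0.051. Of the 4, 5xFAD replicate 4 had the lowest midbrain sum (38.0 CPM), and its median log2 level of those markers was -0.066. For the mt- genes, 5xFAD replicate 4 was at -0.086, the lowest of its genotype, and 5xFAD replicate 1 was highest at 0.373.

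The same libraries stood apart in other gene groups. In 5xFAD replicate 4, cytosolic ribosomal protein genes summed to 24300 CPM, against 12100 to 18000 in the other 15 libraries, and mitochondrial ribosomal protein genes to 3130 CPM, against 1970 to 2570. Summed thalamus markers were 441 CPM there and 142 to 208 CPM in the others, and excitatory neuron markers were 4540 CPM, where the 12 libraries low in midbrain markers had 7560 to 11000 CPM. Short transcripts were also high in it: over all tested genes of up to 983 bases, the median length of the nuclear members, the median log2 level was 0.525, while over longer genes it was 0.026. Among nuclear members the 38 shorter ones had a median of 0.652 and the 37 longer ones 0.598. The part of tissue makeup and of RNA or library quality in this pattern was not tested.

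In summed CPM, complex II was the class that followed least. Its summed CPM was 657 to 693 in 5xFAD-Dp16, 606 to 698 in 5xFAD, 655 to 697 in Dp16 and 653 to 715 in wild-type libraries. Sdha makes up most of that sum, and it was the one nuclear member lowest in 5xFAD replicate 4 (341 CPM, against 401 to 460 CPM in all others). The other complex II genes did follow. Sdhb, the iron-sulfur subunit, had 154 CPM there, Sdhc 106 CPM and Sdhd, a membrane anchor, 95.8 CPM, the highest of all libraries for each. Of the 9 nuclear members not highest in that library, 4 were the tissue-restricted complex IV genes Cox4i2, Cox6b2, Cox7a1 and Cox8b, 1 was Ndufa4l2, and the others were Sdha, Ndufa10, Ndufaf1 and Ndufaf8. Genes of the citric acid cycle and pyruvate dehydrogenase, which feed the chain, summed to 2810 to 3250 CPM in all libraries.

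**Figure D3:**
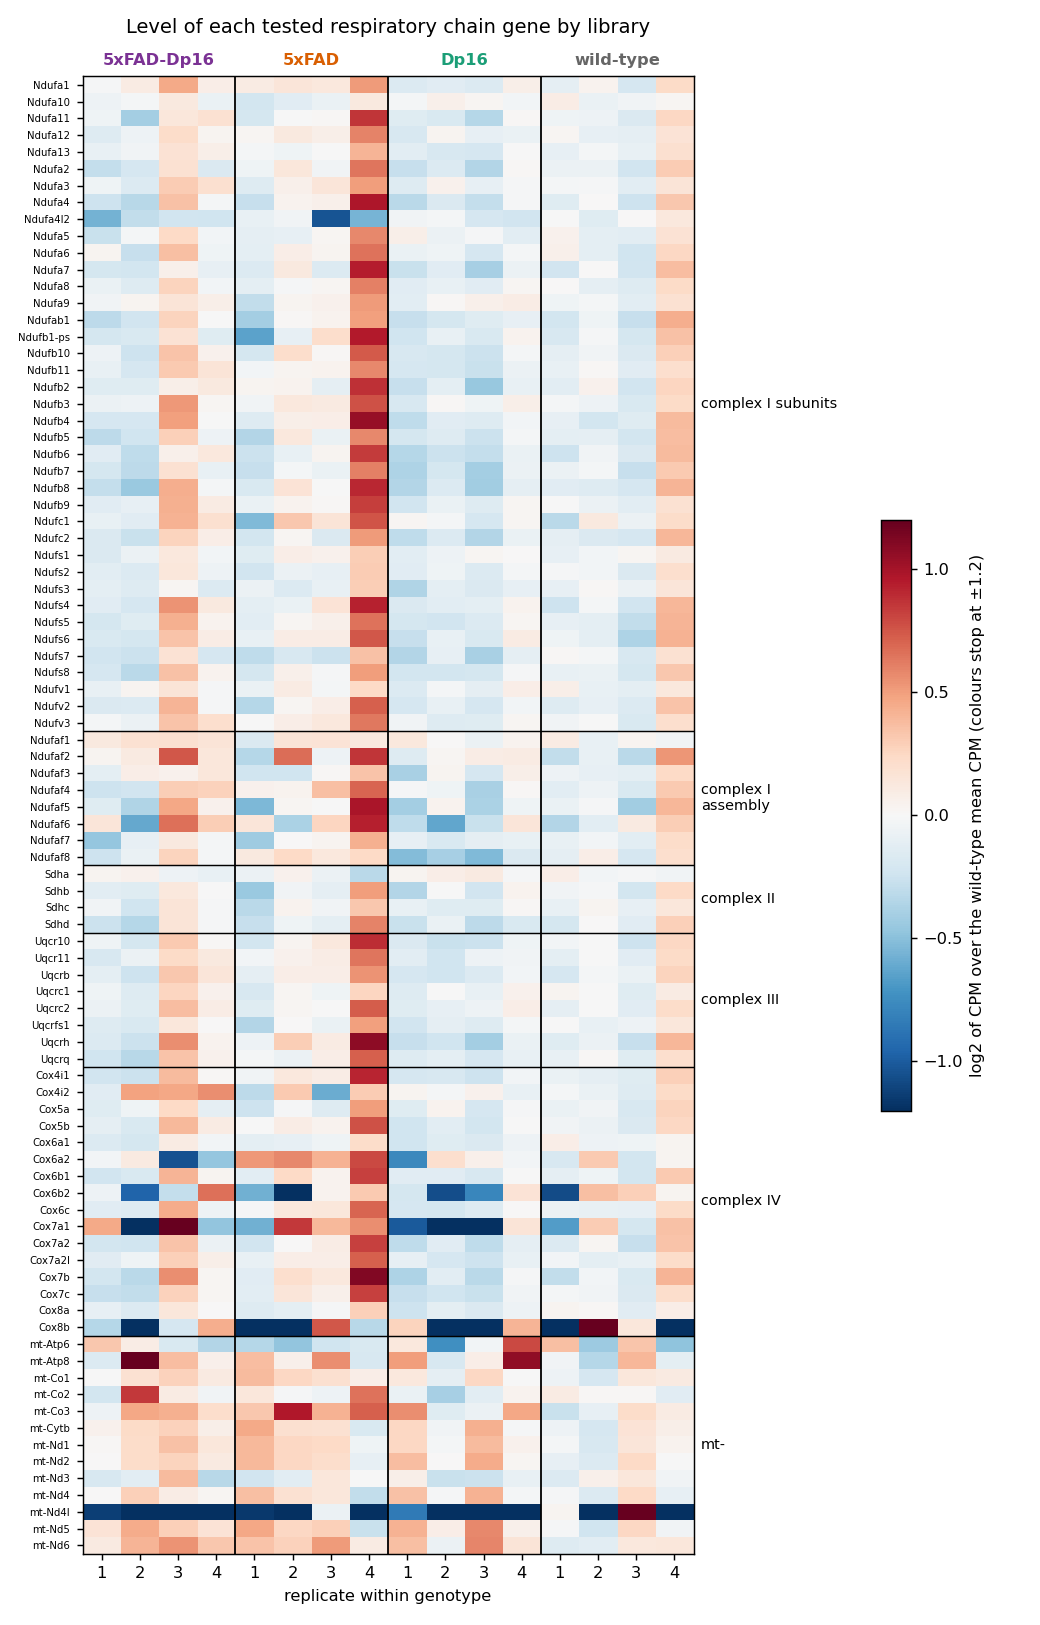
Each row is 1 of the 88 tested genes and each column 1 library (replicates 1 to 4 in each genotype); colour is the log2 of CPM over the gene's wild-type mean CPM, cut at ±1.2. The column of 5xFAD replicate 4 is red for most nuclear genes, and it holds the highest value of 66 of the 75, but of none of the 13 mt- genes.

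All genes were fitted together with edgeR over the 16 libraries with a term for sex, with Benjamini-Hochberg adjustment over the 16684 tested genes and a threshold of 0.05 on the adjusted p. In none of the 5 pairwise comparisons or their interaction did a respiratory chain gene pass. The fold changes below are fitted log2 values with their standard errors (SE), and the comparisons share samples, so they are not independent of each other.

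In 5xFAD-Dp16 against wild-type, 0 of the 88 members passed, where 1.01% of all tested genes did. At unadjusted p under 0.05 there were 2 higher and 1 lower mt- gene and no nuclear gene, against 6.38% of all genes. The 75 nuclear members had a median log2 fold change of -0.01, with 35 above 0, and the 13 mt- genes 0.18, with 10 above 0. Over all tested genes the median was -0.004. The nuclear median was -0.11 without 5xFAD-Dp16 replicate 3, 0.07 without wild-type replicate 4 and 0.14 in males only.

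In 5xFAD against wild-type, 0 of 88 passed (0.971% of all genes), and 1 nuclear and 2 mt- genes had unadjusted p under 0.05, all higher (8.85% of all genes). Of the nuclear members, 65 of 75 had a positive log2 fold change with a median of 0.19, and of the mt- genes 10 of 13 with a median of 0.21, where the median of all genes was 0.02. The nuclear median was -0.02 without 5xFAD replicate 4 and 0.47 in males only, a comparison of 2 against 2 libraries that includes that library. The mt- median was 0.30 without it and 0.02 in males only.

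In Dp16 against wild-type, 0 of 88 passed (0.0839% of all genes), and 1 nuclear gene, lower in Dp16, had unadjusted p under 0.05 (3.31% of all genes). The nuclear median was -0.14, with 5 of 75 above 0, and the mt- median 0.18, with 10 of 13 above 0, beside -0.01 for all genes. Without wild-type replicate 4 the nuclear median was -0.02. The mt- median was 0.19 without that library and 0.05 in males only.

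In 5xFAD-Dp16 against 5xFAD, 0 of 88 passed (0.0539% of all genes), and 1 nuclear gene, lower in 5xFAD-Dp16, had unadjusted p under 0.05 (3.28% of all genes). The nuclear median was -0.17 with 10 of 75 above 0, and it was 0.10 without 5xFAD replicate 4. The mt- median was 0.00. In 5xFAD-Dp16 against Dp16, 0 of 88 passed (0.845% of all genes), and 2 nuclear genes, both higher, had unadjusted p under 0.05 (8.57% of all genes). The nuclear median was 0.13 with 66 of 75 above 0, and 0.01 without 5xFAD-Dp16 replicate 3, beside an mt- median of 0.02.

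The interaction, which is the Dp16 difference on the 5xFAD background minus that without it, was called for 0 of 88 members and 0% of all genes by edgeR, and for 0 genes by DESeq2. At unadjusted p under 0.05 there was 1 nuclear member, Cox6a2, and 1.99% of all genes. With DESeq2 in place of edgeR no nuclear member passed in any comparison. By DESeq2 1 mt- gene did, mt-Co3 in 5xFAD against wild-type, where 292 of all 16684 genes passed.

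**Figure D4:**
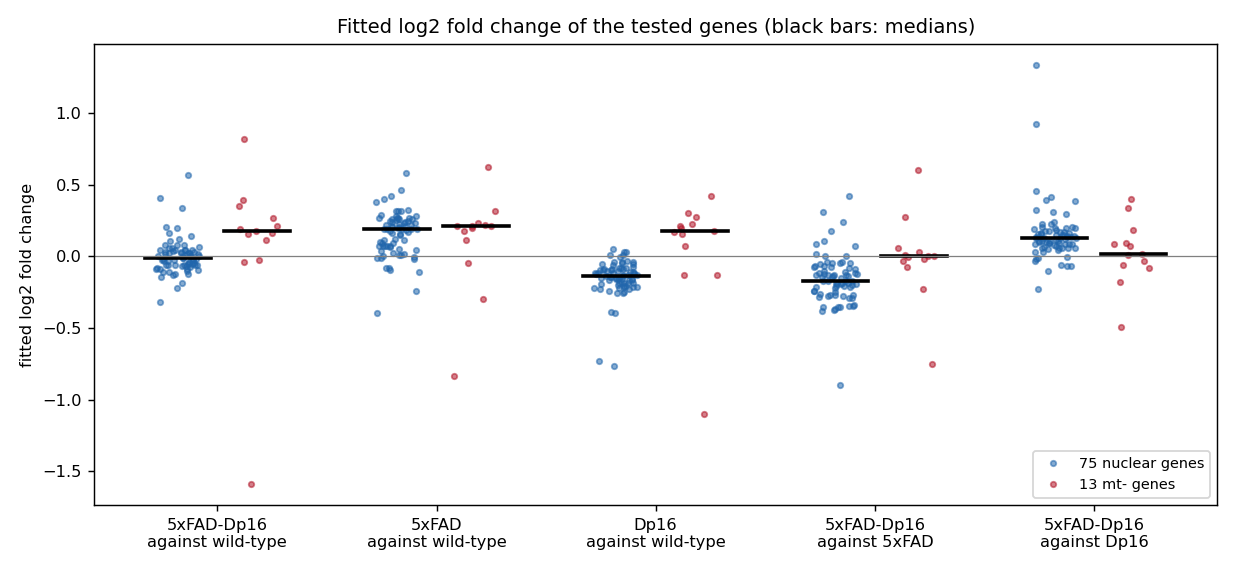
Fitted log2 fold changes of the 75 tested nuclear genes (blue) and the 13 mt- genes (red) in 5 comparisons, with medians as black bars. Nuclear medians run from -0.17 to 0.19 over the 5 comparisons, and no point passed at an adjusted p of 0.05.

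mt-Co3 had the smallest p of the mt- genes. It encodes the third core subunit of cytochrome c oxidase and lies at 8607 to 9390 of the mitochondrial genome. It had 59.3, 92.3, 63.0 and 77.8 CPM in 5xFAD replicates 1 to 4, against 39.3, 44.2, 55 and 50.7 CPM in wild-type. The 4 libraries of 5xFAD were above all 4 of wild-type. The log2 fold change was 0.62 ± 0.17 (SE), with an unadjusted p of 0.00214 and an adjusted p of 0.137 by edgeR. With DESeq2 the adjusted p was 0.0326, without 5xFAD replicate 1 it was 0.0491 by edgeR, and over all alternatives the adjusted p ran from 0.000186 to 0.638. Adding the counts of the chromosome 1 copy gave 0.73 with an adjusted p of 0.171 in edgeR. In 5xFAD-Dp16 it had 45.4, 65.2, 63.7 and 54.8 CPM, which overlapped wild-type (log2 0.39 ± 0.182, adjusted p of 0.769 by edgeR), and in Dp16 69.6, 42.9, 45.2 and 65.4 CPM. Groups that do not overlap were found for 4.53% of all genes in 5xFAD against wild-type, and for mt-Co3 and Cox6a2 among the members.

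The abundant mt- genes of that comparison lay closer to the spread. mt-Co1, the catalytic subunit of complex IV, had 19010, 17400, 16690 and 15470 CPM in 5xFAD, against 13970, 12730, 16010 and 15690 CPM in wild-type. The groups overlapped, with a log2 fold change of 0.23 ± 0.117 and an adjusted p of 0.601 by edgeR. mt-Cytb, the core of complex III, had a log2 fold change of 0.18 (unadjusted p of 0.246 in the edgeR fit), and mt-Nd1, a complex I membrane subunit, 0.21 (unadjusted p of 0.121). mt-Nd5, a proton-pumping subunit of complex I, was listed at 7905, 6247, 8840 and 6188 CPM in Dp16, against 5848, 5033, 7056 and 5753 CPM in wild-type, a log2 difference of 0.30 ± 0.165 with an adjusted p of 0.99 by edgeR.

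Of the other mt- genes, mt-Nd2, a membrane subunit of complex I, ranged over 5084 to 6109 CPM in 5xFAD-Dp16, 4745 to 6642 CPM in 5xFAD, 5093 to 6911 CPM in Dp16 and 4512 to 5964 CPM in wild-type. mt-Nd4, a proton-pumping subunit, ranged over 3404 to 4138 CPM in 5xFAD-Dp16, 2768 to 4360 CPM in 5xFAD, 3335 to 4526 CPM in Dp16 and 3013 to 4008 CPM in wild-type. mt-Atp6, part of the proton channel of ATP synthase, ranged over 59.1 to 94.5 CPM in 5xFAD-Dp16, 54.2 to 66.2 CPM in 5xFAD, 45.2 to 130.1 CPM in Dp16 and 54 to 96.9 CPM in wild-type, and mt-Nd3 over 3.99 to 6.53 CPM in 5xFAD-Dp16, 4.28 to 5.53 CPM in 5xFAD, 4.19 to 5.28 CPM in Dp16 and 4.47 to 5.52 CPM in wild-type. The 4 genotypes overlapped for each, and the smallest unadjusted p of the 4 genes was 0.126 in the edgeR fit, for mt-Nd2 in Dp16 against wild-type.

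mt-Nd6, the complex I subunit encoded on the other strand, was listed at 63.1, 77.6, 85.1 and 73.0 CPM in 5xFAD-Dp16 and 74.4, 70.7, 83.6 and 62.7 CPM in 5xFAD, against 52.5, 53.6, 63.8 and 64.1 CPM in wild-type. Dp16 had 75.2, 55.8, 87.8 and 65.1 CPM. Each mutant group overlapped wild-type. The fitted log2 difference from wild-type was 0.35 in 5xFAD-Dp16 (adjusted p of 0.712), 0.32 in 5xFAD (0.529) and 0.28 in Dp16 (0.99), all by edgeR.

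mt-Nd4l, the smallest complex I core subunit, had a wild-type group split by 2 libraries. It had 12.2, 11.4, 8.75 and 7.72 CPM in 5xFAD-Dp16, against 27.1, 7.81, 60.7 and 10.7 CPM in wild-type. Wild-type replicates 3 and 1 were the highest of all 16 libraries, and wild-type replicate 2 lay within the 5xFAD-Dp16 range. The log2 fold change was -1.59 ± 0.51 with an adjusted p of 0.307 by edgeR, and -0.82 without wild-type replicate 3. In a fit of the 2 groups alone it was -2.12 with an adjusted p of 0.0223 by edgeR. Without a low-count filter the adjusted p was 3.2e-16 by edgeR. Adding the counts of the chromosome 1 copy gave a log2 fold change of -1.03 with an adjusted p of 0.535 by edgeR. mt-Atp8, an ATP synthase subunit, stood out in 1 library, 5xFAD-Dp16 replicate 2, with 30.3 CPM where its group had 7.74 to 11.2 CPM, and mt-Co2 was highest in the same library (256 CPM, with 108 to 223 CPM in the other 15).

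Among nuclear members, Cox6a2 had the smallest p. It encodes the heart and skeletal muscle form of a complex IV subunit and lies on chromosome 7 at 128205435 to 128206387. It had 4.41, 4.86, 2.18 and 3.26 CPM in 5xFAD-Dp16, against 6.45, 6.73, 6.03 and 7.78 CPM in 5xFAD. The 2 groups did not overlap, which held for 2.61% of all genes, and the log2 fold change was -0.90 ± 0.267 with an unadjusted p of 0.00404 and an adjusted p of 0.924 by edgeR. In wild-type it had 3.94, 5.58, 3.87 and 4.61 CPM, below all 5xFAD libraries (log2 0.58 ± 0.246 in 5xFAD, adjusted p of 0.513 by edgeR), and in Dp16 2.64, 5.18, 4.71 and 4.39 CPM. Without the 4 libraries high in midbrain genes the first difference was -0.59. Summed skeletal muscle and heart markers were 4.91 to 10.9 CPM over the 16 libraries.

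Ndufaf8, a complex I assembly factor on chromosome 11, was lowest in Dp16. It had 7.46, 8.40, 10.7 and 8.72 CPM in 5xFAD-Dp16, against 6.18, 6.73, 6.13 and 7.89 CPM in Dp16, an overlap of 1 library on each side. The log2 fold change was 0.46 ± 0.146 with an adjusted p of 0.256 by edgeR. Wild-type had 8.22, 9.38, 7.70 and 10.2 CPM, and Dp16 stood at a log2 difference of -0.39 ± 0.134 from it, with an adjusted p of 0.99 by edgeR. 5xFAD libraries held 9.64, 10.5, 9.66 and 10.5 CPM.

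Other members whose groups did not overlap had small differences. Ndufaf1, another assembly factor, had 19.2, 20.1, 20.2 and 19.8 CPM in 5xFAD-Dp16, against 18.9, 16.7, 18.1 and 17.1 CPM in wild-type (log2 0.14, unadjusted p of 0.187 in the edgeR fit). Ndufa4l2, a relative of Ndufa4 that responds to hypoxia, had 2.94, 3.54, 3.69 and 3.68 CPM in 5xFAD-Dp16, below the 4.33, 3.92, 4.36 and 4.75 CPM of wild-type and the 4.21, 4.28, 3.78 and 3.70 CPM of Dp16. Its log2 difference was -0.22 from wild-type (unadjusted p of 0.291) and -0.10 from Dp16 (unadjusted p of 0.628), both in the edgeR fit. Of all genes, 4.38% did not overlap between 5xFAD-Dp16 and wild-type and 5.76% between 5xFAD-Dp16 and Dp16, and 2.92% did not overlap between Dp16 and wild-type, where no member was among them.

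**Figure D5:**
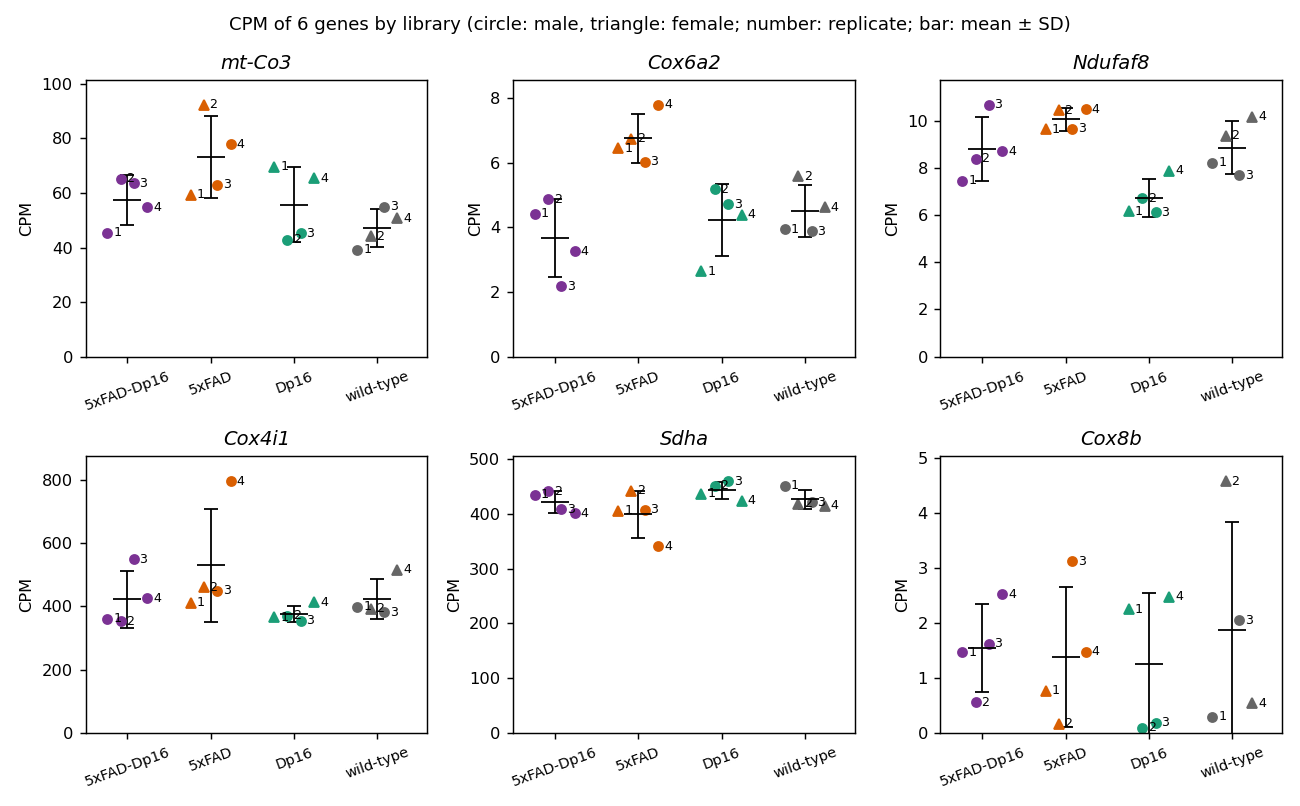
CPM of 6 members in each library (circles male, triangles female, numbers give the replicate) with mean ± SD of 4 libraries; the lower arm of some bars for Cox8b ends at the axis. mt-Co3 and Cox6a2 are higher in all 5xFAD libraries than in any wild-type library, and Cox4i1 is highest and Sdha lowest in 5xFAD replicate 4.

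Cox4i1, the regulatory subunit of complex IV, had 360, 353, 549 and 425 CPM in 5xFAD-Dp16 and 411, 461, 450 and 795 CPM in 5xFAD, against 398, 393, 381 and 516 CPM in wild-type. Dp16 had 366, 370, 354 and 414 CPM. Its smallest p among the pairwise comparisons was 0.107, unadjusted, in the edgeR fit. Uqcrh had 157, 201, 176 and 344 CPM in 5xFAD, against 148, 155, 136 and 216 CPM in wild-type (log2 0.42 ± 0.235, adjusted p of 0.639 by edgeR), and this was 0.11 without 5xFAD replicate 4. Both were highest in 5xFAD replicate 4 of all libraries, and neither passed in any comparison.

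In complex I, Ndufa1, an X-linked subunit needed for assembly, averaged 74.8 ± 11.4 CPM in 5xFAD-Dp16, 78.3 ± 11.3 CPM in 5xFAD, 62.4 ± 5.15 CPM in Dp16 and 66.7 ± 8.77 CPM in wild-type (mean ± SD of 4 libraries each). Ndufa12, an accessory subunit, averaged 128 ± 14.5 CPM in 5xFAD-Dp16, 147 ± 29.3 CPM in 5xFAD, 119.5 ± 7.42 CPM in Dp16 and 126 ± 11.4 CPM in wild-type. Ndufa4, placed here by its symbol only, averaged 143 ± 31.7 CPM in 5xFAD-Dp16, 178 ± 74.2 CPM in 5xFAD, 128 ± 12.7 CPM in Dp16 and 147 ± 26.4 CPM in wild-type. For all 3 the 5xFAD mean was the highest of the 4 and the Dp16 mean the lowest. Those 5xFAD means include 5xFAD replicate 4, the highest of all libraries for each. There Ndufa1 had 95.2 CPM (71.4 to 73.9 in the other 5xFAD libraries) and Ndufa12 191 CPM (128 to 137). Ndufa4 had 287 CPM there, against 121 to 153 CPM in the other 5xFAD libraries. Each of the other 5xFAD libraries of Ndufa1 was below the 5xFAD-Dp16 mean of 74.8 CPM. Its 5xFAD mean was thus the highest only with 5xFAD replicate 4. For Ndufa12 and Ndufa4 the ranking without that library was not computed. Ndufaf4, an assembly factor, averaged 20.8 ± 4.33 CPM in 5xFAD-Dp16, 25.1 ± 5.65 CPM in 5xFAD, 18.8 ± 2.28 CPM in Dp16 and 20.2 ± 3.34 CPM in wild-type. In complex III, Uqcr11 averaged 94.3 ± 12.1 CPM in 5xFAD-Dp16, 107 ± 25 CPM in 5xFAD, 85.3 ± 5.12 CPM in Dp16 and 92.3 ± 11.1 CPM in wild-type, and Uqcrq 87.4 ± 18.9 CPM in 5xFAD-Dp16, 103 ± 29.1 CPM in 5xFAD, 80.4 ± 2.68 CPM in Dp16 and 88.6 ± 9.59 CPM in wild-type. The SD of these genes was largest in 5xFAD in 5 of 6 cases and smallest in Dp16 in all 6. All 6 had their highest CPM of all libraries in 5xFAD replicate 4.

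Tissue-restricted isoforms were present at a small fraction of their general partners. As a median over libraries, per length, Ndufa4l2 stood at 1.82% of Ndufa4, Cox6a2 at 1.59% of Cox6a1, Cox7a1 at 1.34% of Cox7a2, Cox6b2, the testis form, at 1.02% of Cox6b1, Cox8b at 0.749% of Cox8a, Cox4i2, the lung and hypoxia form, at 0.346% of Cox4i1, and Cox7b2 at 0.186% of Cox7b. The general partners ranged between 108.2 RPKM for Cox7b and 576.5 RPKM for Cox4i1. Cox7a1, the heart and muscle form, had 1.70, 0.298, 3.09 and 0.893 CPM in 5xFAD-Dp16, against 0.618, 0.471, 0.434 and 1.38 CPM in Dp16. The groups overlapped, and the log2 fold change of 1.33 ± 0.62 had an adjusted p of 0.579 by edgeR.

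Cox8b, the heart and muscle form of a small complex IV subunit, varied most, by 48.6-fold between libraries. The low end is a few counts: 2 in Dp16 replicate 2, and 3 each in 5xFAD replicate 2 and Dp16 replicate 3. It was listed at 1.47, 0.554, 1.62 and 2.52 CPM in 5xFAD-Dp16, 0.766, 0.167, 3.13 and 1.48 CPM in 5xFAD, 2.25, 0.0941, 0.186 and 2.48 CPM in Dp16 and 0.292, 4.58, 2.05 and 0.543 CPM in wild-type. Its genotypes overlapped, and its level was split by the summed choroid plexus markers (Ttr, Folr1, Kcnj13, Clic6, Kl, Prlr and Otx2). In the 10 libraries where these summed to 1600 to 6520 CPM, Cox8b was at 0.766 to 4.58 CPM, and in the 6 where they summed to 54.0 to 196 CPM it was at 0.0941 to 0.554 CPM. The part of choroid plexus tissue in the Cox8b level was not tested.

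Of the wider pathway, Gabpa on the 3-copy segment was higher in both groups that carry it. Gabpa, the DNA-binding subunit of a transcription factor (GA-binding protein, also NRF2) that is known to drive many nuclear respiratory genes, lies on chromosome 16 at 84834925 to 84863779. It had 40.5, 41.6, 34.6 and 38.4 CPM in 5xFAD-Dp16 and 43.7, 36.6, 38.7 and 34.9 CPM in Dp16, against 27.9, 24.2, 24.5 and 21.9 CPM in 5xFAD and 22.1, 28.9, 26.7 and 22.8 CPM in wild-type. All 8 libraries with 3 copies were above all 8 with 2. It rose in 5xFAD-Dp16 against wild-type (log2 0.68 ± 0.116, adjusted p of 0.00685), in 5xFAD-Dp16 against 5xFAD (0.71 ± 0.117, adjusted p of 0.0405) and in Dp16 against wild-type (0.61 ± 0.107, adjusted p of 0.044), all by edgeR. Against wild-type, the 5xFAD-Dp16 call was kept in 23 of 26 alternatives. It was lost without wild-type replicate 1 (adjusted p of 0.0636), in males only (0.0798) and with only the 2 groups fitted (0.166), all by edgeR. The call against 5xFAD was kept in 10 of 26, as was that of Dp16 against wild-type, and leaving out 1 library of any genotype could end them. The log2 fold change stayed between 0.55 and 0.76 in all alternatives of the 3.

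The ATP synthase subunits Atp5j and Atp5o and the mitochondrial ribosomal protein Mrpl39 are on the same segment. Atp5j, Atp5o and Mrpl39 were all singled out after their values were seen. Atp5j had 141.6, 139.2, 144.3 and 145.5 CPM in Dp16, against 93.13, 104.6, 90.9 and 121.3 CPM in wild-type, groups that did not overlap. The log2 fold change was 0.48 ± 0.155 with an adjusted p of 0.99 by edgeR, and that of Atp5o was 0.46 ± 0.18 with the same adjusted p. Mrpl39 rose in 5xFAD-Dp16 against wild-type (log2 0.57 ± 0.11, adjusted p of 0.0171 by edgeR). Mrpl39 did not pass in 5xFAD-Dp16 against 5xFAD (adjusted p of 0.14) or in Dp16 against wild-type (0.17), both by edgeR. In the ATP synthase list of 18 genes, no gene passed in any comparison.

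The other regulators named here did not pass. Nrf1 activates nuclear respiratory genes, Ppargc1a is a coactivator of mitochondrial biogenesis, and Tfam packages mitochondrial DNA and helps to start its transcription. These and Cycs, cytochrome c, had fitted log2 differences between -0.19 and 0.14 in the 5 pairwise comparisons, with none passing. Cycs had 82.3, 85.1, 105.3 and 99.8 CPM in 5xFAD-Dp16 and 83.8, 88.3, 98.8 and 143 CPM in 5xFAD, against 87.9, 89.8, 83.5 and 111 CPM in wild-type, and was highest in 5xFAD replicate 4 like most nuclear members. The regulator list of 12 genes had a median log2 fold change of -0.06 in 5xFAD-Dp16 against wild-type, 0.05 in 5xFAD against wild-type and -0.02 in Dp16 against wild-type, and 1 of its genes, Gabpa, passed. None of the 16 citric acid cycle and pyruvate dehydrogenase genes passed, with medians of -0.03 in 5xFAD-Dp16, -0.01 in 5xFAD and -0.03 in Dp16 against wild-type. The 77 cytosolic ribosomal protein genes had larger medians of the same sign as the nuclear members, -0.19 in Dp16 and 0.27 in 5xFAD against wild-type.

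Because the nuclear members moved together, their promoters were read for the motifs of 3 factors known to bind such genes. RefSeq (GRCm38.p6) gave 300 bases, 250 before and 50 after the start, for 61 of the 77 nuclear members. GCGCATGC, the core of the NRF1 site, was found on either strand in 9 of 61 members (14.8%), and in 3.05% of all 27025 genes and 5.34% of the 12172 other tested genes with a promoter. CCGGAAGTG, a GABP site, was found in 2 of 61 (3.28%), against 2.25% of all genes and 4.26% of the other tested genes. AAGATGGCG, a YY1 site, was found in 6 of 61 (9.84%), against 1.64% of all genes and 2.98% of the other tested genes. In 5 of the 63 member promoters, matches overlapped, in each case the NRF1 letters of both strands. Members with the NRF1 letters were Cox6a1, Ndufa11, Ndufa6, Ndufa8, Ndufaf4, Ndufaf5, Sdhb, Uqcr11 and Uqcrc1. A match describes letters only.

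The 2 promoters shown are those of the members with the highest RPKM among the holders of the NRF1 letters and of the GABP letters before the start. They give the 250 bases before the start, with the matched letters in capitals. Cox6a1, the general partner of Cox6a2, is on the minus strand at chr5:115348959-115349208, and Uqcrh on the minus strand at chr4:116075071-116075320.
Cox6a1: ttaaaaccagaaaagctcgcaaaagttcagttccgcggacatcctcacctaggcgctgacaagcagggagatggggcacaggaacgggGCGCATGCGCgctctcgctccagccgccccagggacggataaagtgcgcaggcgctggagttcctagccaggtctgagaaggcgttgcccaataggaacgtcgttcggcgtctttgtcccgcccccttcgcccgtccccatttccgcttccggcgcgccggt
Uqcrh: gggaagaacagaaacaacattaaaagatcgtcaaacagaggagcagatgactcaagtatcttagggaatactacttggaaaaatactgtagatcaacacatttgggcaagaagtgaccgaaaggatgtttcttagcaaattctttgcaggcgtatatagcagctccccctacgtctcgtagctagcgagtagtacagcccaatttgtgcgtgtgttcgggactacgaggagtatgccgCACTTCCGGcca
Cox6a1 averaged 258 ± 25 CPM in 5xFAD-Dp16, 270.2 ± 31 CPM in 5xFAD, 244 ± 12.1 CPM in Dp16 and 271 ± 13.5 CPM in wild-type (mean ± SD of 4 libraries each). Uqcrh averaged 173 ± 46.9 CPM in 5xFAD-Dp16, 219 ± 84.9 CPM in 5xFAD, 138 ± 12.7 CPM in Dp16 and 164 ± 35.9 CPM in wild-type. Neither passed the test in any comparison.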

How the data were processed

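RNA was measured in 16 libraries, 4 for each genotype, grouped by the labels. Per the labels' protocols, polyadenylated RNA was made into strand-specific libraries. Per the submitters' processing notes, FastQC 0.11.5, HISAT2 2.1.0, SAMtools 1.5 and HTSeq 0.6.1 were used with build GRCm38; strand and multiple-match settings are not given there. The authors deposited raw counts per gene and RPKM values, which are the counts scaled by library total and 1 length per gene (27505 genes checked, relative tolerance 1e-06). Counts were fitted with edgeR 4.0.16 in R 4.3.3: the edgeR default filter (minimum count 10, total 15), TMM scaling, a robust quasi-likelihood test with genotype and sex, and Benjamini-Hochberg adjustment over 16684 genes at 0.05. The fit was tested on simulated data. CPM are TMM-scaled; library levels used log2 CPM with a prior count of 2. Members and lists were chosen with earlier results of these data known. Genes were named as follows: members with adjusted p under 0.05, all mt- genes, the 3 smallest p and the highest RPKM per nuclear class, isoform pairs, and 5 pathway genes with any that passed. Ndufb4, Ndufv3, Ndufa10, Ndufaf1, Atp5j, Atp5o, Mrpl39 and further promoter motif holders were named after their values were seen. Alternatives were DESeq2 1.42.0, other scaling and filters, other models and leaving out libraries. Copies were aligned with Biopython 1.88. No 2 replicates agreed within sampling noise.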

Additional observations from a re-analysis of the deposited data

Results flagged for a closer look

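The 40 named members and 4 library summaries (the mt- share, the log2 ratio of mt- to nuclear counts, and the median level of nuclear and of mt- members) were examined in the 4 libraries of each genotype, 176 groups in all, for a highest or lowest library whose gap to the nearest other exceeded Dixon's 95% value for 4 samples. Of these groups 13 held such a library, all for a single member, where chance flags about 1 in 20. In 5xFAD replicate 4 there were 5: Cox4i1 at 795.2 CPM (411 to 460.8 CPM in the other 5xFAD libraries), Ndufa12 at 191 CPM (128.2 to 137.2), Uqcrq at 146 CPM (84.35 to 93.73), Uqcr11 at 144.5 CPM (90.5 to 98.03) and Ndufa1 at 95.21 CPM (71.42 to 73.89). In 5xFAD-Dp16, mt-Atp8 had 30.31 CPM in replicate 2 (7.744 to 11.18 in the others), Ndufaf2 28.54 CPM in replicate 3 (17.35 to 18.65) and Cox4i2 1.3 CPM in replicate 1 (1.973 to 2.102). In Dp16, Cox7c had 93.38 CPM (79.67 to 81.51) and Ndufa1 70.05 CPM (59.36 to 60.61) in replicate 4, Ndufaf4 had 15.43 CPM in replicate 3 (19.53 to 20.37) and mt-Nd4l 14.82 CPM in replicate 1 (7.559 to 8.781). In wild-type, Cox4i1 had 516 CPM in replicate 4 (381 to 398). The cause was not tested for any of them.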

How the results depend on the processing

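No nuclear member passed under any alternative. The number of mt- genes called was 1 with DESeq2 in 5xFAD against wild-type, where 292 of all 16684 tested genes were called. Without a low-count filter, 30883 genes were tested. There, 1 mt- gene was called in Dp16 against wild-type (210 of all genes) and 2 in 5xFAD against wild-type (398 of all genes). Without that filter, 2 were also called in 5xFAD-Dp16 against wild-type (355 of all genes) and 1 in 5xFAD-Dp16 against 5xFAD (75 of all genes). Fitting only the groups compared called 1 in 5xFAD-Dp16 against wild-type, beside 40 of all 16064 genes tested there. Leaving out 1 library at a time called 0 to 1 in 5xFAD against wild-type. The 1 was without 5xFAD replicate 1, where 120 of all 17034 genes were called. In males only, the median log2 fold change in 5xFAD against wild-type was 0.469 for nuclear and 0.020 for mt- genes, and the interaction median was -0.297 for nuclear and 0.010 for mt- genes. Leaving out 1 library moved the nuclear median between -0.278 and 0.097 in 5xFAD-Dp16 against 5xFAD and between -0.202 and 0.225 in the interaction, both upper values being without 5xFAD replicate 4. Without the 4 libraries high in midbrain genes, the mt- median in 5xFAD-Dp16 against 5xFAD was -0.176, and the nuclear median was 0.050 in 5xFAD against wild-type and -0.040 in Dp16 against wild-type. That setting leaves out 5xFAD replicate 4 as well. Replicate numbers did not pair samples: 9 of 24 same-numbered pairs correlated above 0.1, and 3 of 16 libraries correlated best with their own number. With a replicate block, the nuclear median was 0.165 in 5xFAD against wild-type and -0.129 in Dp16 against wild-type, and no member passed. Several medians changed sign when 1 library was left out, and the largest nuclear median was among them. The nuclear median in 5xFAD against wild-type was 0.189 with all libraries and -0.015 without 5xFAD replicate 4, that in 5xFAD-Dp16 against wild-type ran between -0.108 and 0.069, and the mt- median ran between -0.139 and 0.037 in 5xFAD-Dp16 against 5xFAD and between -0.074 and 0.124 in 5xFAD-Dp16 against Dp16. The causes were not tested.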
